A study of Mus musculus with 2 samples.

Results

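The 10 genes described here encode transcription factors that set and hold T cell identity: Tcf7, Lef1, Tox, Id2, Id3, Bcl11b, Runx3, Bach2, Satb1 and Ets1. They were chosen by symbol, 10 of the 31053 gene rows measured, and each was found in both libraries. The choice was made with earlier results of these data known, so counts of factors below are descriptions and not tests of the set. Single-cell RNA was measured in 2 droplet libraries of cells from the mediastinal lymph nodes (MedLNs), which drain the lung, of wild-type C57/B6J mice. Both groups carried ovalbumin (OVA)-induced asthma: 50 µg OVA with alum was injected on days 0 and 7, OVA was given intranasally from day 14 to day 16, and tissue was taken on day 17 from mice of 5 to 13 weeks. The w/o butyrate group received no butyrate, and the w/ butyrate group received sodium butyrate, a short-chain fatty acid made by gut bacteria. By the study's methods butyrate was given in drinking water or by gavage, and which route these mice had is not given in the sources used here. The nodes of 4 mice were pooled in each library, so each condition has 1 library: no test was possible, and condition and library cannot be told apart.

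TCF-1 (from Tcf7) and LEF-1 are DNA-binding proteins of the HMG-box family that work with β-catenin or with repressors of the TLE family, and they mark naive, memory and follicular helper T cells more than terminal effector cells. E proteins, of the basic helix-loop-helix class, drive many T cell genes, and ID2 and ID3 bind them and keep them off DNA. BCL11B secures T cell commitment in the thymus, RUNX3 directs the CD8+ lineage and silences Cd4 there, and BACH2 holds lymphocytes back from effector or plasma cell fates.

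The question was where in the node each factor was expressed, and whether its level differed between the group without and the group with butyrate. A level is the UMIs (unique molecules counted per gene and cell) of a gene summed over all cells of a gate and scaled to the UMIs of all genes in that sum (CPM, the usual unit of scaled counts). Its 95% interval is the exact Poisson interval and covers counting error only, not the spread between cells or between mice. A ratio is given as log2 of CPM with a pseudocount of 10 CPM, w/ over w/o butyrate, and it understates the difference of low genes. The exact binomial 95% interval of a ratio also leaves out the spread between cells and between mice. For ratios a gene needed at least 50 UMIs over both sums. A ratio between libraries was called past the limit where it was beyond 0.3219 on the log2 scale in either direction, written as 0.32 below. A ratio between gates was called where it was beyond 2-fold.

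Gates were set by UMIs. T cells had Cd3e and no Cd79a, CD4+ or CD8+ cells had Cd4 or Cd8a and not the other, and B cells had at least 3 Cd79a UMIs and no Cd3e, Cd4 or Cd8a. CD4+ cells were Foxp3+ (regulatory), S100a4+ without Foxp3 (effector or memory), or naive-like, with neither S100a4 nor Foxp3 and with a further gate gene. The naive-like CD4+ gate held 568 cells w/o and 486 cells w/ butyrate, the Foxp3+ gate 83 and 77, the S100a4+ CD4+ gate 39 and 37, the CD8+ gate 1463 and 1474, and the B cell gate 4022 and 3792. Of the 13 gates defined, 10 had at least 20 cells in each library and are described. The libraries held 59176459 and 58381292 UMIs. Before filtering, 25 cell barcodes were present in both. After filtering, 8774 and 8013 cells remained, with medians of 5069 and 5648 UMIs.

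Marker genes that set no gate were compared across gates. The 6 T cell markers summed to 4250 to 5551 CPM in the 4 main T cell gates and to 39.0 and 46.2 CPM in B cells. The 5 regulatory T cell markers summed to 2179 and 2006 CPM in Foxp3+ cells against 171 and 163 CPM in naive-like CD4+ cells, and the 7 effector or memory markers to 5452 and 5688 CPM in S100a4+ CD4+ cells against 622 and 639 CPM in naive-like CD4+ cells. The effector or memory list was also at 6186 and 4510 CPM in Foxp3+ cells, and the regulatory list at 1094 and 474 CPM in S100a4+ CD4+ cells, so these lists did not tell the 2 gates fully apart. The libraries differed in an interferon-response list, whose 12 genes were all lower w/ butyrate past the limit in naive-like CD4+ and in CD8+ cells, and 10 of 12 in B cells. Its part in the ratios below was not tested, and values among cells low in this list are given beside some of them.

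On mm10 (GRCm38, GENCODE M21) all 10 genes are protein coding. Tcf7 lies on chr11:52252371-52283014 (minus strand), Lef1 on chr3:131110471-131224356 (plus), Tox on chr4:6686353-6991557 (minus), Id2 on chr12:25093799-25097140 (minus) and Id3 on chr4:136143497-136145755 (plus). Bcl11b lies on chr12:107910403-108003602 (minus), Runx3 on chr4:135120652-135177990 (plus), Bach2 on chr4:32238804-32586108 (plus), Satb1 on chr17:51736187-51833290 (minus) and Ets1 on chr9:32636221-32757820 (plus). The libraries read the 3′ end of transcripts, so isoforms of a gene are not told apart here. Another counted gene overlaps Tcf7, Lef1, Bach2, Tox, Runx3 and Ets1, on the opposite strand in 6 of 10 genes and also on the same strand in 1, Tcf7. How reads in such overlaps were counted was not examined here.

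Tcf7 and Lef1 were high in naive-like CD4+ and CD8+ cells, lower in Foxp3+ and S100a4+ CD4+ cells, and near absent in B cells, in both libraries. Tcf7 was at 441 CPM (95% interval 419 to 465) w/o and 499.5 CPM (475 to 525) w/ butyrate in naive-like CD4+ cells. In CD8+ cells it was at 349 and 354 CPM, in S100a4+ CD4+ cells at 247 (202 to 298) and 286 CPM (233 to 348), in Foxp3+ cells at 119 (96.1 to 145) and 141 CPM (116 to 170), and in B cells at 2.69 and 3.94 CPM. The order naive-like CD4+, CD8+, S100a4+, Foxp3+, B was shared by both libraries, and neighbours had separate intervals except CD8+ and S100a4+ cells w/ butyrate.

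Lef1 was at 561 CPM (536 to 587) w/o and 546 CPM (521 to 573) w/ butyrate in naive-like CD4+ cells. In CD8+ cells it was at 417 and 419 CPM, in Foxp3+ cells at 127 (104 to 154) and 164 CPM (137 to 196), in S100a4+ CD4+ cells at 83.0 (58.1 to 115) and 152 CPM (114 to 198), and in B cells at 5.01 and 5.96 CPM. Unlike Tcf7, whose level was higher in S100a4+ than in Foxp3+ cells with separate intervals, Lef1 had overlapping intervals in these 2 gates.

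Tox, another HMG-box factor that is needed for CD4+ T cells to develop and that is high in chronically stimulated T cells, had another order. It was at 157 CPM (122 to 199) w/o and 78.6 CPM (52.2 to 114) w/ butyrate in S100a4+ CD4+ cells, at 104 and 93.9 CPM in Foxp3+ cells, at 74.7 and 59.7 CPM in naive-like CD4+ cells, at 44.9 and 41.5 CPM in CD8+ cells, and at 1.95 and 1.54 CPM in B cells. The steps from naive-like CD4+ to CD8+ cells and from CD8+ to B cells were separate in both libraries, and the steps between the higher gates were not.

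**Figure D1:**
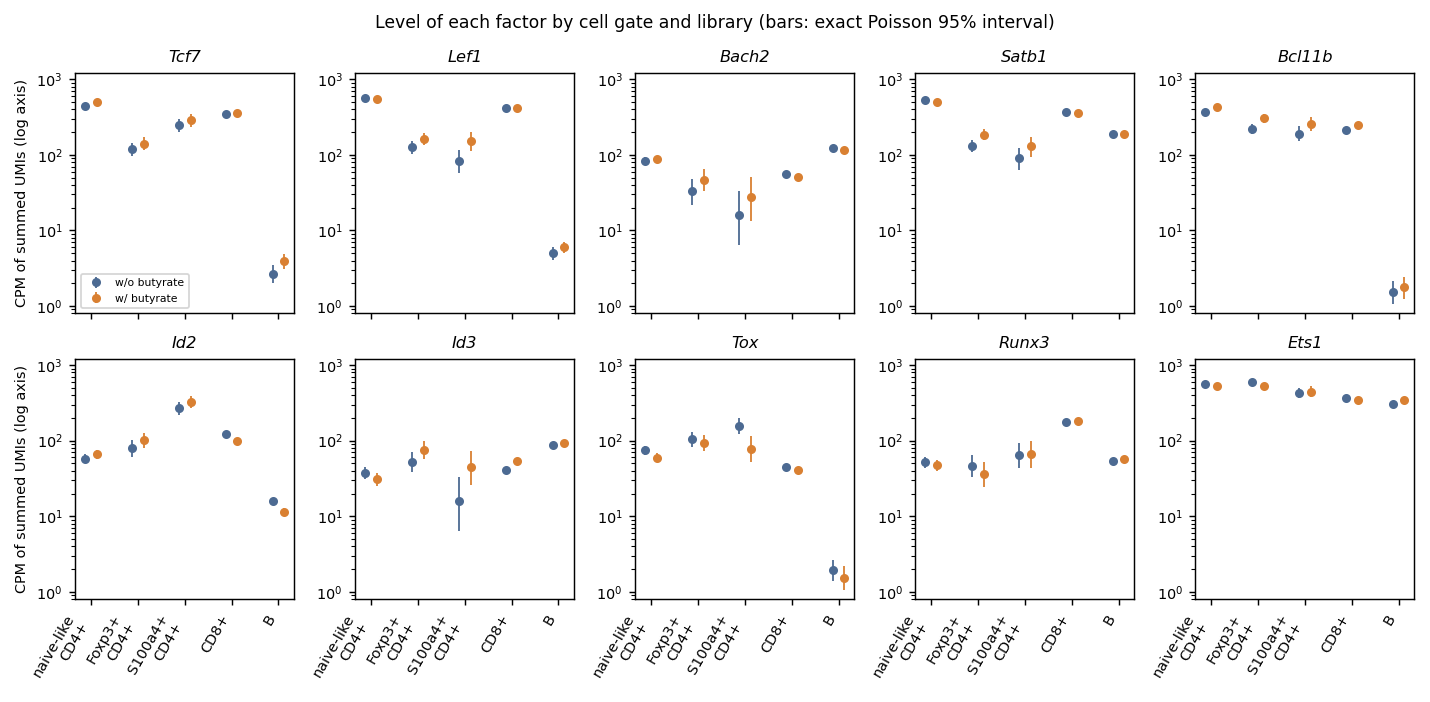
CPM of each of the 10 factors (log axis) in the 5 main gates, with 1 point per library (blue w/o, orange w/ butyrate) and bars for the exact Poisson 95% interval. Tcf7, Lef1, Bcl11b and Tox sit at 1.53 to 5.96 CPM in B cells, Id2 peaks in S100a4+ CD4+ cells, Runx3 in CD8+ cells, and Ets1 stays between 306 and 589.9 CPM in all gates.

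The comparison of S100a4+ with naive-like CD4+ cells asks which factors differ between antigen-experienced and resting helper cells, and it was made within each library. Lef1, Satb1 and Bach2 were more than 2-fold lower and Id2 more than 2-fold higher in S100a4+ cells, in both libraries. Lef1 had a log2 ratio of -2.62 (95% interval -3.07 to -2.19) w/o and -1.78 (-2.17 to -1.42) w/ butyrate. For Satb1, a chromatin organizer of thymocytes and T cells, the ratios were -2.42 and -1.85, and for Bach2 they were -1.82 and -1.35. Bach2 rested on only 7 and 10 UMIs in S100a4+ cells. Id2 had ratios of 2.03 (1.71 to 2.34) and 2.14 (1.83 to 2.45). A single S100a4+ cell w/o butyrate held 44 of the 116 Id2 UMIs, and the ratio without it is not given here.

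Thus 3 of 10 factors were past 2-fold lower in each library, against 3.12% of the genes w/o and 1.21% of the genes w/ butyrate that were tested. In each library 1 of 10 was past 2-fold higher, against 9.5% and 5.58% of genes. The median over the 10 factors was -0.84 w/o and -0.48 w/ butyrate, and that over all genes tested was 0.18 in both. Tcf7 (-0.81 and -0.78), Bcl11b (-0.90 and -0.70) and Ets1 (-0.38 and -0.26) were lower by less than 2-fold with intervals below 0 in both libraries. Tox had a ratio of 0.98 (0.60 to 1.34) w/o and 0.35 (-0.20 to 0.86) w/ butyrate. Runx3 (0.28 and 0.44) had intervals that included 0, and Id3 had ratios of opposite sign, -0.87 and 0.42, from 7 and 16 UMIs in S100a4+ cells. When ribosomal, mitochondrial and receptor genes were left out of the scaling, 7 of 10 factors were past 2-fold w/o butyrate in place of 4. The median over all genes tested also moved lower under that scaling, as given in the closing section. The share of all genes past 2-fold under it is not given here, so this count is not read as a result about the factors. Cycling markers moved with this comparison: the 4 of them summed to 1383 and 1159 CPM in S100a4+ cells against 150 and 98.7 CPM in naive-like CD4+ cells, and their part in it was not tested.

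Foxp3+ and S100a4+ CD4+ cells had overlapping levels of Lef1 and Satb1 and separate levels of Tcf7 and Id2. Against naive-like CD4+ cells, Tcf7 had ratios of -1.81 and -1.76, Lef1 of -2.06 and -1.67 and Satb1 of -1.91 and -1.36, while Id2 was within 2-fold at 0.39 and 0.54. The level of Id2 in Foxp3+ cells was 79.4 CPM (61.3 to 101) w/o and 102 CPM (80.4 to 127) w/ butyrate, against 267 CPM (221 to 321) and 328 CPM (272 to 394) in S100a4+ CD4+ cells. These intervals were apart in each library, though w/o butyrate a single S100a4+ cell held 44 of the 116 UMIs.

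Foxp3+ cells were not uniform. Those without S100a4 (59 cells w/o and 56 w/ butyrate) had higher levels of Tcf7, Lef1, Bcl11b and Satb1 than those with it (24 and 21 cells). The cells with S100a4 were also deeper, with medians of 10663 and 9443 UMIs against 4653 and 5554.5. The part of depth was not tested. Tcf7 was at 186 and 218 CPM without S100a4 and at 41.9 (23.9 to 68.0) and 41.7 CPM (22.8 to 69.9) with it, which makes log2 ratios of -1.92 and -2.14. Lef1 was at 176 and 225 CPM against 70.6 and 86.3 CPM, and Bcl11b at 296 and 411 CPM against 136 and 169.7 CPM. Id3 w/ butyrate was at 109 CPM against 32.7 CPM, a ratio of -1.48, and it had under 50 UMIs over both gates w/o butyrate. Bach2 was counted 26 and 36 times in Foxp3+S100a4- cells and 1 time and 0 times in Foxp3+S100a4+ cells. At 3 counts, the limit that a count of 0 allows, this is up to 8.93 CPM, or 14.3% of the 21 cells with a UMI, which does not limit the share of cells that express the gene. In all, 4 of 7 factors with enough UMIs w/o and 5 of 8 w/ butyrate were past 2-fold lower with S100a4, where 2.93% and 3.55% of genes were. None of them was past 2-fold higher, where 5.43% and 9.21% of genes were. The factors had median ratios of -1.07 and -1.13 against 0.14 and 0.24 over all genes. The cycling markers summed to 2558 and 1762 CPM in Foxp3+S100a4+ cells against 1001 and 641 CPM in Foxp3+S100a4- cells, and their part was not tested.

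In CD8+ cells S100a4 went with lower Lef1 and Satb1 and higher Id2, and Tcf7 had overlapping levels. In the 20 and 23 S100a4+ CD8+ cells, Tcf7 was at 319.6 and 381 CPM, against 351 and 356 CPM in the 1222 and 1239 naive-like CD8+ cells, with ratios of -0.13 (-0.48 to 0.20) and 0.09 (-0.18 to 0.36). A single S100a4+ CD8+ cell w/ butyrate held 28 of the 114 Tcf7 UMIs. Lef1 had ratios of -0.77 (-1.16 to -0.39) and -0.95 (-1.30 to -0.61), and Id2 of 1.07 (0.67 to 1.45) and 0.78 (0.36 to 1.17). Satb1 had ratios of -0.57 (-0.96 to -0.19) and -0.59 (-0.93 to -0.27). Bach2 had ratios of -1.22 and -1.19, from 4 and 5 UMIs in S100a4+ CD8+ cells. Tox, Id3, Runx3 and Ets1 had ratios of opposite sign in the libraries. Cycling markers summed to 233 and 813 CPM in S100a4+ CD8+ cells against 74.4 and 78.4 CPM in naive-like CD8+ cells, and regulatory T cell markers to 648 and 224 CPM against 109.8 and 88.0 CPM. Their part was not tested. Whether the differences between CD4+ and CD8+ cells in these ratios exceed the spread between mice was not tested.

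**Figure D2:**
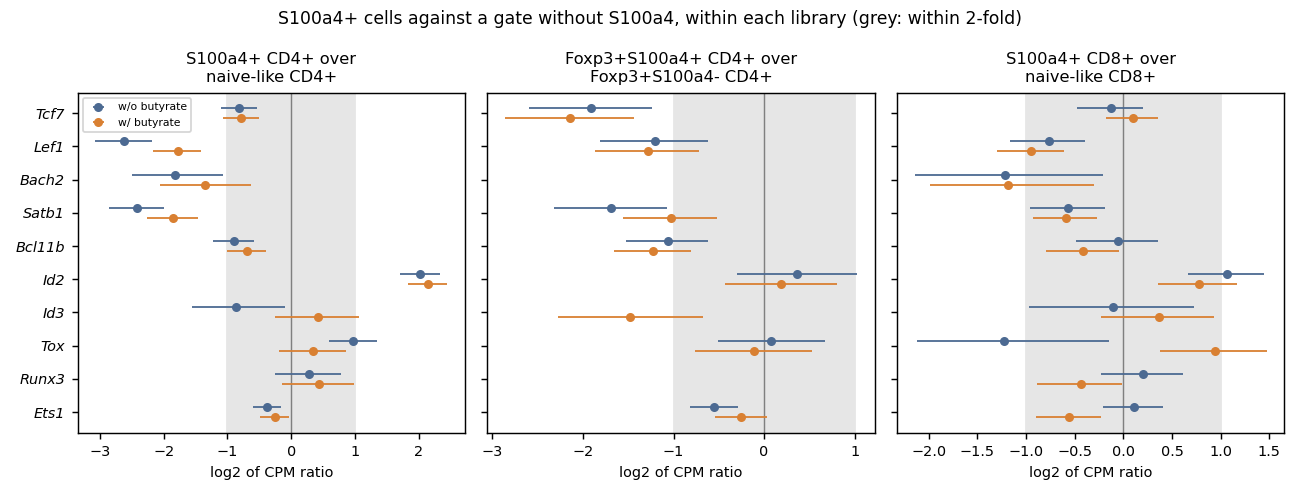
Log2 ratio of CPM (pseudocount 10) for the 10 factors, of S100a4+ over naive-like CD4+ cells (left), Foxp3+S100a4+ over Foxp3+S100a4- cells (middle) and S100a4+ over naive-like CD8+ cells (right), with 1 point per library and exact binomial 95% intervals. The grey band is within 2-fold, and factors with under 50 UMIs over both sums are not drawn. Lef1 lies left of 0 in all 3 panels in both libraries and Id2 right of 0, with an interval that includes 0 in Foxp3+ cells.

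Id2 and Id3, both inhibitors of E proteins, had different patterns. Id2 was at 58.0 and 66.7 CPM in naive-like CD4+ cells, at 79.4 and 102 CPM in Foxp3+ cells, 121 and 98.7 CPM in CD8+ cells and at 15.7 and 11.4 CPM in B cells. Its highest level in CD4+ cells was in the S100a4+ gate, where a single cell w/o butyrate held 44 of the 116 UMIs. Id3 was highest in B cells among the main gates, at 87.1 CPM (83.2 to 91.2) and 93.8 CPM (89.7 to 98.1). It was at 52.5 and 75.6 CPM in Foxp3+ cells, 40.7 and 54.4 CPM in CD8+ cells, 37.7 and 31.1 CPM in naive-like CD4+ cells, and 16.1 (6.49 to 33.2) and 44.9 CPM (25.7 to 72.9) in S100a4+ CD4+ cells. No step between neighbours in the order of the Id3 means was separate in both libraries.

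Both genes were high in Trdc+ T cells, which had Cd3e and Trdc and neither Cd4 nor Cd8a. These 90 and 72 cells carried γδ T cell markers at 338 and 402 CPM, against 4.4 and 4.89 CPM in CD8+ cells. They also carried the CD8 T cell list (Cd8b1, Ly6c2, Ccl5 and Nkg7) at 3224 and 3347 CPM, against 2463 and 2410 CPM in CD8+ cells. In Trdc+ cells Id2 was at 181 (144 to 224) and 223 CPM (179 to 274). Id3 was at 153 (119 to 193) and 113 CPM (82.5 to 150), and Runx3 at 159 and 184 CPM. Against naive-like CD4+ cells, the log2 ratios were 1.49 and 1.60 for Id2, 1.77 and 1.58 for Id3, and 1.46 and 1.76 for Runx3. Tcf7 differed little, with ratios of -0.07 and -0.08, while Lef1 had ratios of -1.04 and -0.97.

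**Figure D3:**
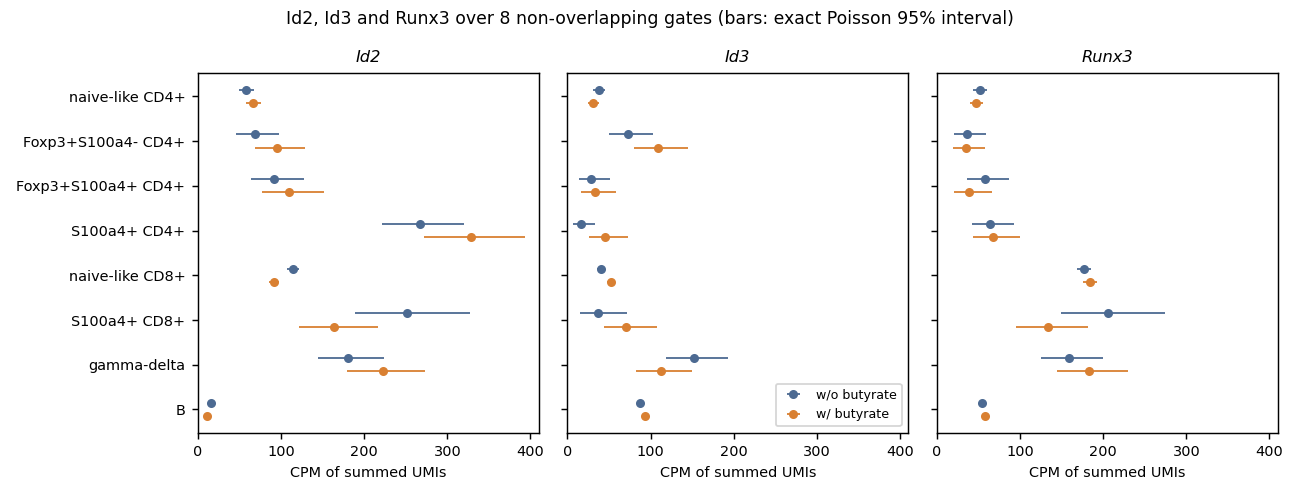
CPM of Id2, Id3 and Runx3 in 8 gates that share no cells, by library, with exact Poisson 95% intervals. Id2 is above 150 CPM in S100a4+ CD4+, S100a4+ CD8+ and Trdc+ (gamma-delta) cells and lowest in B cells. Id3 is highest in Trdc+ cells w/o butyrate. With butyrate its interval there overlaps those of Foxp3+S100a4- (109 CPM, 80.2 to 145), S100a4+ CD8+ and B cells. Runx3 is high in both CD8+ gates and in Trdc+ cells.

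The start regions of Id2, Id3 and Bcl11b are printed because these were the factors with a ratio between libraries furthest from 0 in CD8+ cells, the T cell gate with most UMIs. They come from RefSeq (GRCm38.p6), which gave a window for 8 of the 10 genes, and span 250 bases before to 50 after the start. Capitals mark CANNTG, the E-box that E proteins bind, and CTTTGA, the core that TCF-1 and LEF-1 bind, searched on both strands.
Id2, chr12:25096043-25096342, minus strand: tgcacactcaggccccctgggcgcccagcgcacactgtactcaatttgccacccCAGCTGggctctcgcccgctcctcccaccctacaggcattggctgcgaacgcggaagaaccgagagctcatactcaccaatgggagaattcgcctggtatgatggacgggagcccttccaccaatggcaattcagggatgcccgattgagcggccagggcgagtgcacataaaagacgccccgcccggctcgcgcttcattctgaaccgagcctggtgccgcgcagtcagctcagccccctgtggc
Id3, chr4:136143572-136143871, plus strand: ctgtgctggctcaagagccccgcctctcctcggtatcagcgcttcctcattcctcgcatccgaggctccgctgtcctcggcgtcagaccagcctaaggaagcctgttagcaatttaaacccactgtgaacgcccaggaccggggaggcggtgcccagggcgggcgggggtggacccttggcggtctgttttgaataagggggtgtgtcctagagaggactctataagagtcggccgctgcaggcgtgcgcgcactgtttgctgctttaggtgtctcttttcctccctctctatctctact
Bcl11b, chr12:108003365-108003664, minus strand: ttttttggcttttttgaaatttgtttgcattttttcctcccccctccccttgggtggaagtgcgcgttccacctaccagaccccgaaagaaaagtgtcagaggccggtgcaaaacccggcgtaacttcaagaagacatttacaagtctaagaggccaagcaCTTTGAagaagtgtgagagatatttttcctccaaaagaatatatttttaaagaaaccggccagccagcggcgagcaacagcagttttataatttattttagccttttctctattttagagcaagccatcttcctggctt

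The Id2 window holds 1 E-box and no CTTTGA, the Id3 window holds neither, and the Bcl11b window holds 1 CTTTGA and no E-box. An E-box is present in 13 of the 17 windows of the 8 genes and in 72.3% of all 32851 windows. CTTTGA is present in 3 of 17 and in 5257 of all 32851. These matches describe the letters in the windows.

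Runx3 was highest in CD8+ cells, at 176 CPM (168 to 184) w/o and 181 CPM (173 to 188) w/ butyrate. It was at 51.5 and 47.2 CPM in naive-like CD4+ cells, and the ratio of naive-like CD8+ over naive-like CD4+ cells was 1.60 (1.41 to 1.80) and 1.77 (1.56 to 1.97). It was the only factor of the 10 past 2-fold in that comparison, in each library, where 0.793% and 0.798% of genes were past 2-fold higher and 0.474% lower in each. S100a4+ CD4+, B, naive-like CD4+ and Foxp3+ cells lay between 36.5 and 67.4 CPM and did not differ from their neighbours beyond counting error in both libraries.

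Bcl11b was at 365 (345 to 387) and 425 CPM (403 to 448) in naive-like CD4+ cells, 221 and 305 CPM in Foxp3+ cells, 210.3 and 251 CPM in CD8+ cells, 191 and 258 CPM in S100a4+ CD4+ cells, and 1.53 and 1.78 CPM in B cells. The naive-like CD4+ level and the B cell level were apart from the rest in both libraries, and the other 3 gates were not separate from their neighbours in both libraries.

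Bach2, Satb1 and Ets1 were counted in both T and B cells. Bach2 was at 123 (118 to 128) and 116 CPM (111 to 121) in B cells, 82.4 and 86.8 CPM in naive-like CD4+ cells, 55.4 and 51.6 CPM in CD8+ cells, 33.0 and 47.0 CPM in Foxp3+ cells, and 16.1 and 28.1 CPM in S100a4+ CD4+ cells. Satb1 was at 524 and 492 CPM in naive-like CD4+ cells, 366 and 359.8 CPM in CD8+ cells, 189 and 188 CPM in B cells, 132 and 185 CPM in Foxp3+ cells, and 89.9 and 129 CPM in S100a4+ CD4+ cells. Ets1, an ETS-family factor needed by T and B lymphocytes, was at 557 and 536 CPM in naive-like CD4+ cells, 589.9 and 532 CPM in Foxp3+ cells, 426 and 446 CPM in S100a4+ CD4+ cells, 366 and 347 CPM in CD8+ cells, and 306 and 344 CPM in B cells. For Ets1 no step between neighbours was separate in both libraries.

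To read low levels in B cells, 4 genes that B cells should lack (Cd3d, Cd3g, Trac and Trbc2) were taken as a measure of free RNA. They were in B cells at 0.531% to 0.850% of their T cell level w/o and at 0.707% to 1.03% w/ butyrate. Bcl11b, at 0.573% and 0.566%, and Tcf7, at 0.721% and 1.02%, lay within or below those ranges, so their B cell level is read as background. Lef1, at 1.18% (0.964% to 1.42%) and 1.38% (1.15% to 1.65%), lay just above them, and Tox, at 3.05% and 2.79%, further above. Id2 was at 14.3% and 10.7%, Runx3 at 45.9% and 45.6%, Satb1 at 47.5% and 49.3%, and Ets1 at 68.0% and 80.8% of the T cell level. Id3 (194% and 179.8%) and Bach2 (199.9% and 191%) were higher in B cells than in T cells. In the other direction, Cd79b, Ms4a1 and Ighd were in T cells at 0.319% to 1.37% of their B cell level.

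**Figure D4:**
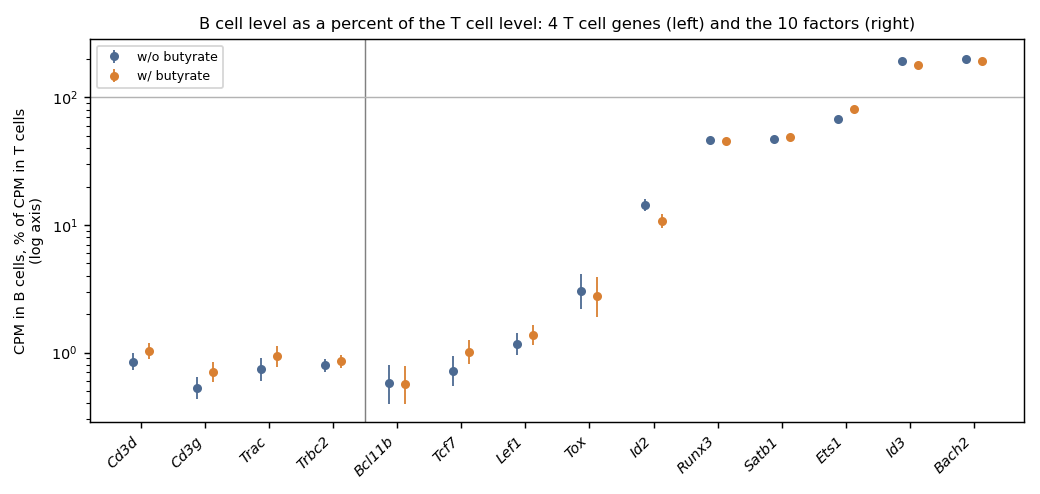
CPM in B cells as a percent of CPM in all Cd3e+ T cells (log axis), by library, for 4 T cell genes left of the vertical line and the 10 factors right of it, with 95% intervals for counting error. Bcl11b and Tcf7 lie at the level of the T cell genes, at 0.566% to 1.02%, and Id3 and Bach2 lie above the line at 100%.

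Between the libraries, most factors stayed within the limit of 0.32 in the gates with many cells. In naive-like CD4+ cells 0 of 10 factors were past the limit, where 8.68% of genes were. The median ratio over the factors was -0.05 and that over all genes 0.01. Bcl11b (0.21, 0.10 to 0.32) and Tcf7 (0.18, 0.07 to 0.28) were higher and Tox (-0.28, -0.52 to -0.04) was lower w/ butyrate with intervals clear of 0, and the other 7 were not. In cells thinned to 2000 UMIs, 4 of 10 were past the limit, Bcl11b (0.38), Id2 (0.55), Id3 (-0.44) and Tox (-0.40), where 19.3% of genes were, and Lef1 was at 0.21 in place of -0.04. Among the 104 and 167 cells with fewer than 5 interferon-response UMIs, Tcf7 was at 0.05, Tox at -0.17 and Id3 at 0.35 in place of -0.21. Cycling markers summed to 150 and 98.7 CPM in this gate, and their part was not tested.

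In CD8+ cells 1 of 10 factors, Id3, was past the limit, and so were 1.62% of genes. Id3 was counted 435 times w/o and 678 times w/ butyrate, at 40.7 and 54.4 CPM, a ratio of 0.34 (0.20 to 0.49). It sat near the threshold: in cells thinned to 2000 UMIs each the ratio was 0.25, and in naive-like CD8+ cells alone it was 0.31 (0.16 to 0.47), both within the limit. Bcl11b was higher (0.24, 0.17 to 0.32) and Id2 lower (-0.27, -0.38 to -0.17) w/ butyrate within the limit, with intervals clear of 0. Across all 11 other settings tried for this gate, Bcl11b lay between 0.21 and 0.37, Id2 between -0.46 and -0.26, and Id3 between 0.25 and 0.60. The share of CD8+ cells with an Id2 UMI after thinning was 21.2% w/o and 16.2% w/ butyrate, that with Bcl11b 34.1% and 38.3%, and that with Id3 6.57% and 7.81%. Tcf7 (0.02), Lef1 (0.01), Satb1 (-0.02), Runx3 (0.04), Bach2 (-0.09) and Tox (-0.09) had intervals that included 0. A single CD8+ cell w/ butyrate held 21 of the 517 Tox UMIs. In naive-like CD8+ cells alone Tox was lower w/ butyrate (-0.24, -0.40 to -0.08), within the limit. The median over the factors was -0.01 and that over all genes 0.01.

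The interferon-response list summed to 2310 CPM w/o and 1263 CPM w/ butyrate in CD8+ cells. Among cells with fewer than 5 UMIs of that list, 209 w/o and 402 w/ butyrate, 5 of 10 factors were past the limit in place of 1. These were Id3 (0.60), Bcl11b (0.37), Id2 (-0.46), Tox (-0.52) and Bach2 (-0.49). The share of all genes past the limit among these cells is not given here, so the count is not read as a result about the factors. In CD8+ cells thinned to 2000 UMIs that share was 7.69%. The 4 cycling markers summed to 71.3 and 100.4 CPM in CD8+ cells and to 74.4 and 78.4 CPM in naive-like CD8+ cells, where the ratio of Id2 was -0.29 and that of Bcl11b 0.26. The part of either list was not tested.

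In B cells 0 of 10 factors were past the limit, against 1.89% of genes. Id2 was lower there too (-0.27, -0.40 to -0.13), and Ets1 was higher (0.17, 0.12 to 0.21), both within the limit. Among the 1659 and 2295 B cells with fewer than 5 interferon-response UMIs, Id2 was at -0.09 and Ets1 at 0.08, and after thinning they were at -0.22 and 0.06. Plasma cell markers summed to 848 and 304 CPM in this gate and cycling markers to 187 and 94.9 CPM, and their part was not tested. The median over the factors was 0.05 and that over all genes 0.03. Id2 in B cells was at 15.7 and 11.4 CPM, close to the pseudocount, so this ratio understates the difference of its levels.

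In the small gates counting error was wider. In Foxp3+ cells 5 of 10 factors, Lef1, Bach2, Satb1, Bcl11b and Id3, were past the limit, higher w/ butyrate, and 0 lower, where 26.6% of genes were past it either way. Id2, at 0.3218, lay just within the limit. The median was 0.33 over the factors and -0.01 over all genes. Only Satb1 (0.46, 0.11 to 0.81) and Bcl11b (0.45, 0.17 to 0.72) had intervals clear of 0. After thinning, Satb1 was at -0.01, Id3 at -0.44 and Tcf7 at -0.78 in place of 0.23, so that these directions did not hold. Few thinned cells had a UMI: 30 w/o and 26 w/ butyrate for Satb1, 9 and 7 for Id3, and 28 and 16 for Tcf7. Bcl11b (0.37), Bach2 (0.36), Id2 (0.43) and Lef1 (0.16) stayed higher w/ butyrate after thinning, and Tox, Runx3 and Ets1 stayed lower. Only 5 of 10 factors then had enough UMIs. The naive T cell list, which holds none of the 10 factors, was also higher in this gate w/ butyrate, at 517 and 657 CPM, and the effector or memory list was lower, at 6186 and 4510 CPM. Cycling markers were at 1728 and 1132 CPM. The part of these in the ratios was not tested.

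In S100a4+ CD4+ cells 4 of the 8 factors with enough UMIs were past the limit, and 42.7% of genes were. Lef1 was counted 36 times w/o and 54 times w/ butyrate, a ratio of 0.80 (0.22 to 1.38). Satb1 (0.48) and Bcl11b (0.41) were also past the fold, with intervals that included 0. Tox was lower, with 68 UMIs in 22 of 39 cells w/o and 28 UMIs in 13 of 37 cells w/ butyrate, a ratio of -0.91 (-1.52 to -0.31). The median was 0.25 over the factors and -0.05 over all genes. In the 6 and 12 cells in which the interferon-response list took under 0.1% of UMIs, the ratio of Tox was 0.08. The makeup of this gate differed between the libraries: regulatory T cell markers summed to 1094 and 474 CPM, naive T cell markers to 606 and 1016 CPM, and the CD8 T cell list to 136 and 522 CPM. Their part was not tested.

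**Figure D5:**
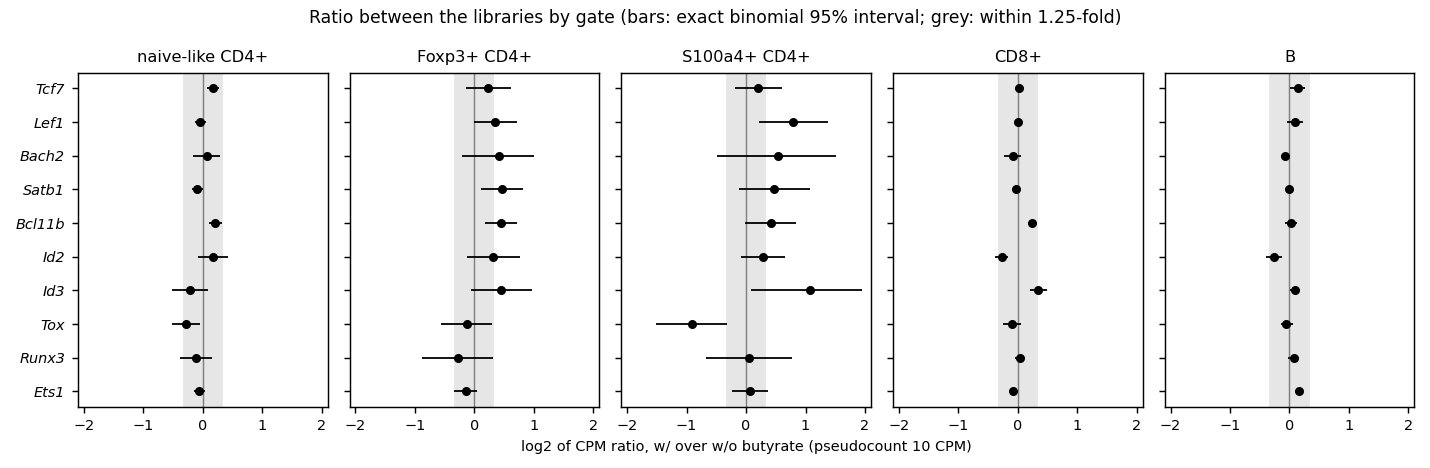
Log2 ratio of CPM (pseudocount 10), w/ over w/o butyrate, for the 10 factors in each of the 5 main gates, with exact binomial 95% intervals for counting error. The grey band is within 0.32 of 0, and Bach2 and Id3 in S100a4+ CD4+ cells rest on under 50 UMIs over both libraries. Points lie within or near the band in naive-like CD4+, CD8+ and B cells, and spread with wide intervals in Foxp3+ and S100a4+ CD4+ cells.

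Id2 and Id3 were counted in the same CD8+ cells about as often as their separate shares give. After thinning, 310 of 1462 cells w/o butyrate had an Id2 UMI, 96 had an Id3 UMI and 24 had both, where the product of the shares gives 20.4. With butyrate 238 of 1473 cells had Id2, 115 had Id3 and 24 had both, where the product gives 18.6. Id3 was found in 7.74% (5.02% to 11.3%, exact binomial) of Id2+ cells and 6.25% (4.92% to 7.81%) of the rest w/o, and in 10.1% (6.57% to 14.6%) and 7.37% (5.97% to 8.97%) w/ butyrate.

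The other genes of the same pathways were taken from lists. The 3 E proteins (Tcf3, Tcf4 and Tcf12), the targets of ID2 and ID3, had 0 of 3 past the limit between libraries in CD8+ cells. In B cells 0 of 3 were past it. Of all genes, 1.62% were past it in CD8+ and 1.89% in B cells. In Foxp3+ cells 2 of 2 tested, Tcf3 and Tcf12, were past it higher w/ butyrate, where 26.6% of all genes were past it. Tcf3 was at 21.9 and 30.8 CPM in naive-like CD4+ cells, with a ratio of 0.35 (0.03 to 0.68), and at 30.5 and 43.0 CPM in Foxp3+ cells, with a ratio of 0.39 and an interval that included 0. Of the β-catenin and TLE list, 4 of 5 genes were matched by symbol, and none of those tested was past the fold in any main gate. Of the 12 paralogs of the factors, 3 to 7 had enough UMIs in a gate, and only Runx1 and Fli1, of 3 tested in S100a4+ CD4+ cells, were past it (42.7% of all genes there). Of the 3 other partners, Mafg was past it higher and Mafk lower in naive-like CD4+ cells, where 8.68% of all genes were past it. Genes named here from a single gate were chosen after their values were seen.

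Of 20 other T cell factors, 3 were higher and 3 lower among the 11 tested in S100a4+ CD4+ cells (42.7% of all genes were past the limit there). In Foxp3+ cells 2 were higher and 3 lower of 14 (26.6%). In naive-like CD4+ cells 1 was lower of 12 (8.68%), in CD8+ cells 1 higher and 1 lower of 15 (1.62%), and in B cells 0 of 14 (1.89%). Ikzf2 encodes Helios, a factor of regulatory T cells. It was at 226 and 84.2 CPM in S100a4+ CD4+ cells, a ratio of -1.32 (-1.90 to -0.77), and was also past the fold in naive-like CD4+ (-0.56) and CD8+ cells (-0.61). Batf, an AP-1 factor of effector T cells, was at 200.5 and 47.7 CPM in S100a4+ CD4+ cells, a ratio of -1.87 (-2.55 to -1.20), and at 199 and 127 CPM (126.5 before rounding) in Foxp3+ cells, a ratio of -0.62 (-0.97 to -0.27). Foxp1, which holds T cells quiescent, was at 148 and 217 CPM in Foxp3+ cells, a ratio of 0.52 (0.19 to 0.85), and had a ratio of 0.35 (-0.13 to 0.83) in S100a4+ CD4+ cells.

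Against naive-like CD4+ cells, S100a4+ CD4+ cells w/o butyrate had Gata3, Ikzf2, Maf, Batf and Bhlhe40 past 2-fold higher, of 12 tested. Foxp1 and Klf2 were past 2-fold lower. Of all genes, 9.5% were past 2-fold higher and 3.12% lower. With butyrate Gata3, Ikzf2, Maf and Bhlhe40 were past 2-fold higher and 0 lower, where 5.58% and 1.21% of genes were. Ratios of these genes between gates are not given here.

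The genes whose pattern was most like that of each factor were ranked by Pearson's r of log2(CPM + 10) over 18 points, 9 gates that share no cells in 2 libraries, among 7832 genes. These are the naive-like, Foxp3+ and S100a4+ CD4+ gates, the naive-like and S100a4+ CD8+ gates, Trdc+ T cells, B cells, and 2 gates too small to be described otherwise, NK cells (12 and 28) and myeloid cells (20 and 13). The points share libraries and differ in depth, so r is a description. Tcf7 was most like Il7r (0.98), the receptor for IL-7, and Thy1 (0.97), and Lef1 was most like Tcf7 (0.95) and Utrn (0.95). Bcl11b was most like Camk4 (0.98) and Art2b (0.97), and Tox like Ubash3a (0.93) and Abhd8 (0.93). Runx3 was most like Atp8b4 (0.92) and Klrd1 (0.92), a receptor of NK and CD8+ T cells, and Ets1 like Gimap3, Gimap1 and Gimap4 (0.98 each). Satb1 was most like the ribosomal protein genes Rpl19 (0.97), Rpl9 (0.96) and Rps15a (0.96), and Bach2 like Foxp1 (0.87). The nearest genes to Id2 (Nbeal2, 0.90) and Id3 (Kansl1, 0.89) were at about the level of that for Bach2. Between members, Id2 and Bach2 had an r of -0.76 and Id2 and Id3 of -0.56.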

How the data were processed

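The authors deposited filtered count matrices of UMIs per gene and cell, made with Cell Ranger 6.0.1 against mm10 by the submitters' processing notes, for 2 libraries of droplet 3′ single-cell RNA. The deposited counts were used unnormalized. Cells with under 200 genes or over 10% mitochondrial UMIs were removed (186 w/o and 327 w/ butyrate), and then 721 and 592 cells as doublets, ranked by Scrublet in scanpy 1.11.5 and taken down to an assumed rate rising with cell number. Counts were summed per gate and library in Python 3.11.15 (numpy 2.4.6, pandas 2.3.3, scipy 1.17.1), and figures were drawn with matplotlib 3.10.9. The ratio between libraries, and its interval without the pseudocount, were tested on simulated counts drawn from the CD8+ sums. With 1 library per condition no p-value was computed. Intervals cover counting error only. One gene of the naive-like gates and 1 B cell marker are not reported here. Named genes were the 10 factors, list genes past the fold in at least 2 main gates, and the 3 genes of most similar pattern per factor, and text-named exceptions are marked. The factors, lists and gates were chosen with earlier results of these data known. Thinning, filters, scalings and gate rules were varied, and their effect is given in the closing section.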

Additional observations from a re-analysis of the deposited data

Results flagged for a closer look

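Ets1 had log2 ratios of opposite sign w/ over w/o butyrate in 2 gates, -0.07284 in CD8+ cells (95% interval -0.13 to -0.01) and 0.166 in B cells (0.12 to 0.21). Both intervals excluded 0 for counting error. With 1 library per condition, the difference between the gates was not tested. In cells thinned to 2000 UMIs the ratio was -0.013 in CD8+ cells and 0.06 in B cells. In naive-like CD8+ cells alone, not thinned, it was -0.055 (-0.121 to 0.011).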

How the results depend on the processing

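Of 760 ratios of single factors recomputed under 14 planned and 2 added alternatives, 59 had the opposite sign to the reported value, 15 of them among cells with fewer than 5 interferon-response UMIs, 12 with that list under 0.1% of UMIs and 11 after thinning. For 7 of the 59 the reported ratio was past the limit: Satb1 (-0.013) and Id3 (-0.44) in Foxp3+ cells thinned to 2000 UMIs, Bcl11b in S100a4+ CD4+ cells with at least 3 S100a4 UMIs (-0.15), Lef1 (-0.39), Satb1 (-0.57) and Bcl11b (-0.39) in the 2 and 6 Foxp3+ cells with fewer than 5 interferon-response UMIs, and Tox in S100a4+ CD4+ cells with that list under 0.1% of UMIs (0.080).

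The share of all genes past 0.32 (log2) between libraries depended on the setting too. After thinning it was 19.3% in naive-like CD4+, 31.5% in Foxp3+, 36.4% in S100a4+ CD4+, 7.69% in CD8+ and 1.8% in B cells. With a pseudocount of 1 CPM it was 20.7%, 32.8%, 45%, 10.8% and 9.22% in these gates. Without doublet removal it was 36.5% in S100a4+ CD4+ and 1.43% in CD8+ cells. With at most 5% mitochondrial UMIs it was 44.8% in S100a4+ CD4+ and 1.62% in CD8+ cells. The share under the other settings is not given here. The counts below are therefore not read as results about the factors. Counts of factors past 0.32 (log2) between libraries moved by over 1.5 times, or to or from 0, as follows. In naive-like CD4+ cells the count was 4 after thinning, and 1 with naive-like cells set by Ccr7, with fewer than 5 interferon-response UMIs, and without the cell with most UMIs. In Foxp3+ cells it was 2 of 5 after thinning, 3 of 5 with at least 200 UMIs, 0 of 0 with fewer than 5 interferon-response UMIs and 2 of 2 with that list under 0.1%, and by less it was 7 with a pseudocount of 1 CPM and 6 with the other scaling and with at most 1 Cd79a UMI. In S100a4+ CD4+ cells it was 2 without doublet removal, 0 of 1 after thinning, 0 of 3 with at least 200 UMIs, 2 of 5 with at least 3 S100a4 UMIs and 0 of 0 with fewer than 5 interferon-response UMIs, and by less it was 6 of 7 with at least 2 Cd3e UMIs, 6 of 10 with no minimum of UMIs, and 5 of 8 with at most 5% mitochondrial UMIs and with at most 1 Cd79a UMI. In CD8+ cells it was 0 without doublet removal, with at most 5% mitochondrial UMIs, with at least 2 Cd3e UMIs and with at most 1 Cd79a UMI, 5 with fewer than 5 interferon-response UMIs and 2 with that list under 0.1%. In B cells it was 2 with a pseudocount of 1 CPM, and 1 with the wider gate and with scaling without ribosomal, mitochondrial and receptor genes. Under that scaling 7 factors were past 2-fold between S100a4+ and naive-like CD4+ cells w/o butyrate, and the median of all genes went from 0.18 to -0.07. The cause was not tested, except that fewer cells or UMIs leave fewer factors tested. The 0.1% limit and leaving out a cell were chosen after seeing the data.

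No paired analysis was possible because each condition has 1 library and no test was made, and there was no replicate to leave out. With 1 library per condition the spread between mice is unknown in every gate, and in the small gates counting error is wide as well.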
